A study of Mus musculus with 6 samples.

Results

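The myosin light chain genes examined here were Myl1, Myl2, Myl3, Myl4, Myl6, Myl6b and Mylpf. They were chosen by gene name from the per-library tables and joined by gene identifier to the count table, which gave 7 of 55421 listed genes, 28405 of which had a count in at least 1 library. RNA-seq was performed on myoblasts on day 4 of differentiation, with 3 libraries of the control group and 3 of the miR-322/-503 group. All 6 libraries came from C2C12 cells, mouse myoblasts that can be made to fuse into myotubes in culture. Both groups stably carried pCDNA3-GFP-(CUG)200, which places an expanded CUG repeat behind GFP and serves as a model of myotonic dystrophy type 1 (DM1). The control line held an empty control vector, which the study does not name further. The other line held pLL4.0-miR-322/-503, which encodes both microRNAs. The comparison asks how light chain RNA differed when miR-322/-503 was overexpressed in DM1 myoblasts. Each group was 1 drug-selected line, so a difference between the lines and an effect of the microRNAs cannot be told apart. Whether the lines were clonal is not given in the sources used here. The methods of the study give 3 biological and 3 technical replicates for its assays in general, unless stated otherwise. The sources do not say which libraries came from separate cultures, so p-values measure the spread between these samples.

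Each myosin molecule pairs 2 heavy chains with light chains of 2 kinds. The essential light chain braces the neck of the motor, and the regulatory light chain sits next to it and is the chain that light chain kinases phosphorylate. Muscle cells replace the smooth muscle and non-muscle light chains with sarcomeric ones as they differentiate, and fast, slow, cardiac and embryonic fibres use different genes. Among the essential chains, Myl1 encodes the fast skeletal forms, Myl4 the embryonic and atrial form and Myl3 the slow and ventricular form. Mylpf encodes the fast skeletal regulatory chain and Myl2 the slow and ventricular one. Myl6 and Myl6b are not strictly striated, since Myl6 is the essential chain of smooth muscle and non-muscle myosin and Myl6b is found in slow muscle and non-muscle cells. In coding sequence, Myl6 and Myl6b shared 79.0% of aligned bases, Myl3 and Myl4 78.1%, Myl1 and Myl4 71.4%, and Myl2 and Mylpf 69.6%.

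The mature microRNAs are shown with the seed (bases 2 to 8) in capitals, because the seed sets which 3′UTR bases can pair with them. Both seeds begin with the same AGCAGC and differ in the last base. Sequences and positions are those of RefSeq (GRCm38.p6), where both lie on the minus strand of chromosome X.
mmu-miR-322-5p (chrX:53054306-53054327): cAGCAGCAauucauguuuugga
mmu-miR-503-5p (chrX:53054027-53054049): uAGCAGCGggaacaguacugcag

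No level of the mature microRNAs is among the values used here, and the RNA-seq counts at their genes were low. At the Mir322 gene, the control libraries held 1, 7 and 2 estimated counts, and the miR-322/-503 libraries held 17, 0 and 3. Mir503 had 1, 1 and 2 in the control and 6, 4 and 5 with miR-322/-503. These counts leave the overexpression unchecked at this depth.

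The base run GCTGCT, which pairs with the shared part of both seeds, was searched in GENCODE M21 transcripts, and is given here for Myl1, Myl2, Myl3, Myl4, Myl6b and Mylpf. Within 3′UTRs it was found once, in Myl2, and in none of the other 5 of these genes. The same run was present in the 3′UTR of 45.2% of 13337 tested genes with a 3′UTR of at least 50 bases, and in 12.2% of the 2622 whose 3′UTR had at most 400 bases. These 3′UTRs were short, with longest forms of 103 bases in Mylpf, 223 in Myl3, 277 in Myl1, 298 in Myl6b, 344 in Myl2 and 406 in Myl4. The 2 sites below, in 3′UTR or coding sequence, have a seventh matching base for 1 of the microRNAs and are written as DNA on the transcript strand, with GCTGCT in capitals.
Myl2-203, 3′UTR, seventh base for miR-322-5p: gggaggtctGCTGCTgtgaccgca
Myl1-201, coding sequence, seventh base for miR-503-5p: aagaagcccGCTGCTgcgcctgcc

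A match of letters is a description and shows no binding. Mylpf also had GCTGCT in its coding sequence, with 6 matching bases only. Myl4 had it in the 5′UTR of 2 transcripts, in 1 of them with a seventh base for miR-322-5p.

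The promoters of Myl1, Mylpf and Myl6b, the 3 members that rose, are shown next, from 250 bases before to 50 bases after the RefSeq start (GRCm38.p6, given 5′ to 3′ on the gene's strand). Capitals mark the E-box CANNTG, the letters that MyoD family factors bind, counted on both strands.
Myl1 (chr1:66945007-66945306, minus strand): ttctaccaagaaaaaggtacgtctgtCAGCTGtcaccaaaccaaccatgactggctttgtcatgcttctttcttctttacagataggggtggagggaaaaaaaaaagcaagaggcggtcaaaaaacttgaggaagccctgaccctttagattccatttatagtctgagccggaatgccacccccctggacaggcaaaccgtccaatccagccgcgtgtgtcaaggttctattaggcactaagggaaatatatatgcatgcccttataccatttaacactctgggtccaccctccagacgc
Mylpf (chr7:127211358-127211657, plus strand): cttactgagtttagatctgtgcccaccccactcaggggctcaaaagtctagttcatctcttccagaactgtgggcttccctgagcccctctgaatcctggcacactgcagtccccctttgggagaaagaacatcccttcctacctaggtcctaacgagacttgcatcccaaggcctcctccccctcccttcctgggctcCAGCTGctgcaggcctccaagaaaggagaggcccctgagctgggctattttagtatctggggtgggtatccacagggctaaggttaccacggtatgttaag
Myl6b (chr10:128498636-128498935, minus strand): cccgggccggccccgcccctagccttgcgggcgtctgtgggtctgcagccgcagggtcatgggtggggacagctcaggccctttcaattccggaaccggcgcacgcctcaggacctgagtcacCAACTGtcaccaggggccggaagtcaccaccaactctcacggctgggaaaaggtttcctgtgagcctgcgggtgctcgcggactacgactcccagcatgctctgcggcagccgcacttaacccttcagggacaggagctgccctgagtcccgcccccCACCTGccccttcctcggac

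The E-box of Myl1 begins at base -224 and that of Mylpf at base -51, and both read CAGCTG. This form was held by 16.3% of 32851 RefSeq promoters, and any E-box by 72.3%. Myl6b held E-boxes at -127 and 31, neither of them CAGCTG. Both RefSeq promoters of Myl2 (chr5:122092474-122092773 and chr5:122092939-122093238) held CAGCTG, at 34 and at -130. These windows end well before the first base of the counted Myl2 gene, at 122100951, so neither spans its annotated start. The promoter of Myl4 held no E-box. MEF2 motifs, found in 0.6% of all promoters, were in no member's promoter. A CArG box, which serum response factor binds and which 1.6% of promoters held, was found in Myl3 at -85 and in 1 of the 2 promoters of Myl6 at -50. TATAAA, held by 13.6% of promoters, was found on the opposite strand in Myl1 at -95 and in 1 promoter of Myl2 at -216. Only these RefSeq starts were searched, and any other start of an annotated transcript was not. No match in these windows says nothing about a factor.

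Of the 7 genes, 6 passed the expression filter, and Myl3 had no count in any library. With miR-322/-503, 3 members rose (Myl1, Myl6b and Mylpf) and 1 fell (Myl6) at an edgeR adjusted p under 0.05. Over all 18140 tested genes, 13.2% rose and 15.5% fell by the same rule. Myl1 was the 1 member that also rose by more than 1 on the log2 scale, and 0 members fell by as much, beside 4.59% and 5.29% of all tested genes. Myl4 and Myl2 did not pass the threshold. The groups did not overlap for 5 of the 6 tested members, all but Myl4, and for 45.1% of all tested genes. Of these 5, Myl2 entered the test only through its miR-322/-503 libraries. The total of each library lay between 73532084 and 92157388 estimated counts.

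Levels are compared between genes in TPM (a transcript level that accounts for length and library size), given as mean ± SD (n = 3). In the control, Myl6 was the most abundant member with 2552 ± 165 TPM, ahead of Mylpf with 1294 ± 171. Myl4 with 203 ± 15.1 and Myl1 with 201 ± 40.5 came next, and their libraries overlapped. Myl6b followed with 25.3 ± 3.78 and Myl2 with 0.244 ± 0.154. With miR-322/-503, Myl6 had 1999 ± 134 TPM and Mylpf 1810 ± 187, and these 2 genes then overlapped between libraries. Myl1 stood at 754 ± 87.8 and Myl4 at 205 ± 23.7, with every Myl1 library above every Myl4 library. Myl6b had 44.6 ± 2.53 and Myl2 0.87 ± 0.378. The order of the other genes was the same in both groups.

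**Figure D1:**
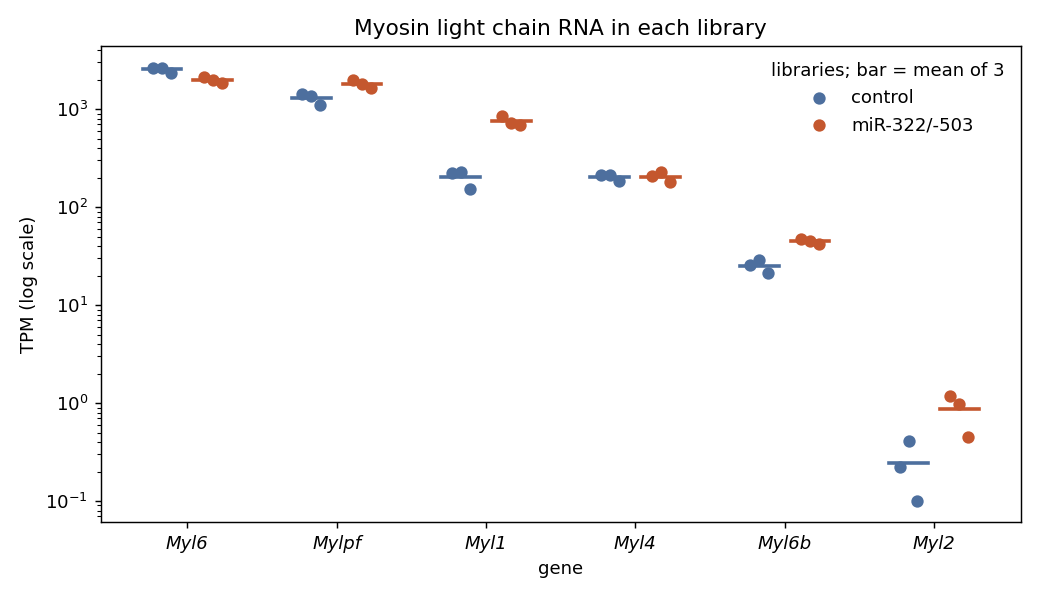
TPM (log scale) of the 6 detected light chain genes in each of the 6 libraries, with points for single libraries and bars for the mean of 3. Myl1 rose from between 154 and 227 to between 687 and 854 TPM, while the 2 groups overlapped for Myl4. Myl3 is left out because it was 0 in all libraries.

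Myl1 (ENSMUSG00000061816, chr1:66924295-66945404, minus strand) is the essential light chain gene of fast skeletal muscle. It had 82.2, 85.5 and 65.3 CPM (estimated counts scaled to library size after TMM) in the control libraries. With miR-322/-503 it had 314, 263 and 267 CPM. The lowest miR-322/-503 library was far above the highest control library, and control replicate 3 was the lowest of all. The fitted log2 fold change was 1.86 ± 0.12 (SE), or 3.62-fold, with an edgeR adjusted p of 3.92e-05. Without control replicate 3 the log2 fold change was 1.75, the smallest when single libraries were left out.

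Reads of Myl1 could also be counted on Mylf-ps, a processed pseudogene at chr12:101221997-101222417 that matched Myl1-201 at 99.3% over 421 bases. The copy received 619, 769 and 838 estimated counts in control libraries, against 2962, 2305 and 2384 with miR-322/-503. It moved with its parent gene, with a log2 fold change of 1.78 ± 0.1 (SE) and an edgeR adjusted p of 2.03e-05. Its counts made up between 8.87% and 13.2% of the counts of both loci in the 6 libraries, with the highest share in control replicate 3. Counts of the gene and of the copy cannot be told apart reliably, and adding them to Myl1 gave a log2 fold change of 1.85. Control replicate 3 also differed in the mean length of the transcripts to which Myl1 reads were assigned, with 801 bases against 716 and 710 in the other control libraries. With miR-322/-503 this length was 708, 697 and 695 bases. TPM is divided by this length and CPM is not.

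Mylpf (ENSMUSG00000030672, chr7:127208890-127214298, plus strand) encodes the regulatory chain that partners Myl1 products on fast myosin. It had 565, 550 and 445 CPM in the control libraries. With miR-322/-503 it had 797, 715 and 697 CPM. The groups did not overlap, and control replicate 3 was again the lowest library. The log2 fold change was 0.50 ± 0.1 (SE), or 1.42-fold, with an edgeR adjusted p of 0.00907. The 95% interval of this difference, 0.22 to 0.79, lay below that of Myl1, 1.52 to 2.20, so the fast regulatory chain rose by less than the fast essential chain. Mylpf started from a far higher level, and in TPM it gained about as much as Myl1, from 1423, 1360 and 1100 in the control to 2007, 1791 and 1634 with miR-322/-503.

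Myl6b (ENSMUSG00000039824, chr10:128494157-128498685, minus strand) was the other essential chain gene that rose. It had 13.9, 15.9 and 11.8 CPM in the control and 25.2, 24.4 and 24.2 CPM with miR-322/-503. The 3 miR-322/-503 libraries lay close together and above every control library. The log2 fold change was 0.83 ± 0.12 (SE), or 1.78-fold, with an edgeR adjusted p of 0.00168. Myl6b remained a minor gene, with the highest library at 46.8 TPM.

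Myl6 (ENSMUSG00000090841, chr10:128490860-128494145, minus strand) was the single member that fell. It had 957, 981 and 870 CPM in the control libraries. With miR-322/-503 it had 776, 727 and 729 CPM. The groups did not overlap, and control replicate 3 was the control library nearest to the other group. The log2 fold change was -0.33 ± 0.063 (SE), with a 95% interval of -0.51 to -0.16 and an edgeR adjusted p of 0.00696. The level in the control was 1.26-fold that with miR-322/-503. When log2(TPM + 1) was tested with limma instead, the fall of Myl6 did not pass the threshold (adjusted p = 0.0519). The 5 processed pseudogenes that matched Myl6 held between 2.12% and 2.46% of the counts of Myl6 and its copies in each library, and adding their counts left its log2 fold change at -0.33.

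Myl6 and Myl6b lie on the same strand with 11 bases between them, and their transcripts shared 90.1% of bases over one stretch of 152 bases. Their changes nevertheless had opposite signs. Myl6 had between 54519 and 80996 estimated counts per library, against 994 to 2403 for Myl6b, so any reads misplaced between them would weigh more on Myl6b. The mean length of the transcripts to which reads were assigned was 696 to 699 bases for Myl6 and 1033 to 1039 bases for Myl6b in the 6 libraries.

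Myl4 (ENSMUSG00000061086, chr11:104550663-104595753, plus strand), the embryonic and atrial essential chain, had 104, 104 and 88.8 CPM in the control. It had 97.6, 104 and 94.3 CPM with miR-322/-503. The libraries of the 2 groups overlapped. The log2 fold change was -0.0046 ± 0.078 (SE), with a 95% interval of -0.22 to 0.21 and an edgeR adjusted p of 0.974. Its sign turned under other scalings, with 0.0069 under RLE size factors. The interval leaves out the change of Myl1, whose own interval began at 1.52. Genes annotated on the opposite strand overlap Myl4, and none of these had more than 78 estimated counts in a library, against 7092 to 9302 for Myl4. The sources do not say whether counting used strand.

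Myl2 (ENSMUSG00000013936, chr5:122100951-122113472, plus strand), the slow and ventricular regulatory chain, was near the limit of detection. Control libraries held 9, 16 and 5 estimated counts of it, and the others held 41, 35 and 17. About 4 estimated counts stood for 1 read pair, so each control library held a handful of read pairs at most. In CPM these were 0.116, 0.194 and 0.0592 in the control and 0.43, 0.467 and 0.226 with miR-322/-503. The groups did not overlap, but Myl2 entered the test only through the miR-322/-503 libraries, and a gene that does so had to differ. The log2 fold change was 1.60 ± 0.57 (SE), with a 95% interval of 0.0018 to 3.19 and an edgeR adjusted p of 0.0778. With limma the adjusted p was 0.0472 on log2(TPM + 1) and 0.0493 on log2(TPM + 0.1). The gene on the opposite strand at this locus, Ccdc63, had no count in any library.

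Myl3 (ENSMUSG00000059741, chr9:110741861-110769798, plus strand), the slow and ventricular essential chain, had 0 estimated counts in all 6 libraries. A count of 0 allows up to 12 estimated counts (3 read pairs) in a library, or between 0.126 and 0.16 CPM. This limit covers counting error only. Myl3 thus lay more than an order of magnitude below Myl6b, the next essential chain gene in level. Pth1r, which overlaps Myl3 on the opposite strand, had between 8 and 48 estimated counts.

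**Figure D2:**
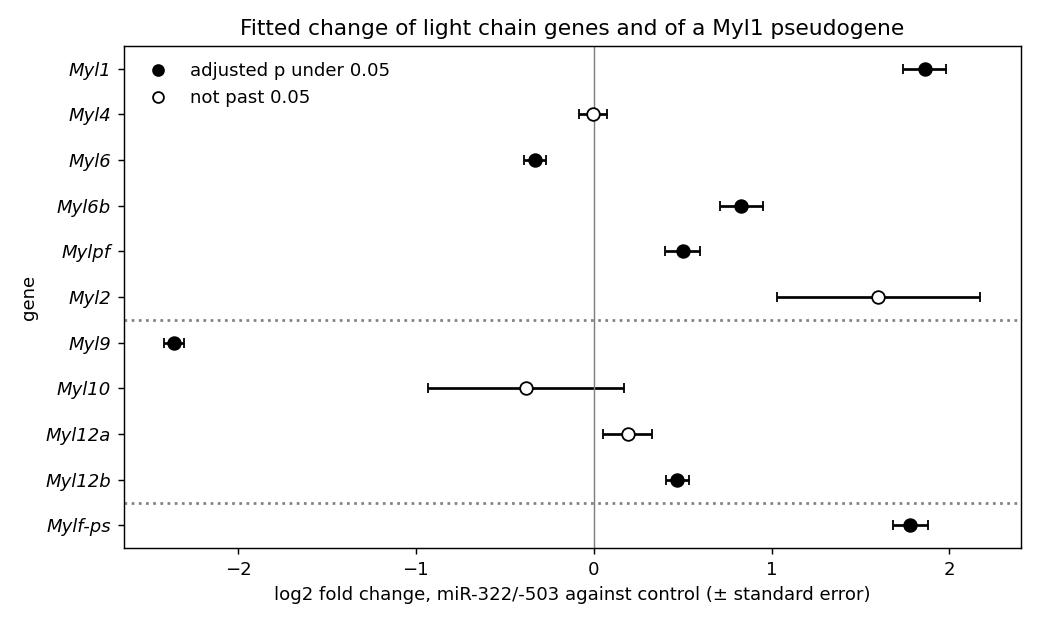
Fitted log2 fold change (miR-322/-503 against control) of light chain genes and of Mylf-ps, with bars of 1 standard error; filled points have an edgeR adjusted p under 0.05. Myl1 (1.86) and Mylf-ps (1.78) moved together, and Myl9 (-2.36) moved furthest in the other direction.

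Another 5 light chain genes, Myl7, Myl9, Myl10, Myl12a and Myl12b, were set beside the members, and 4 of them could be tested. Myl9, the regulatory chain of smooth muscle, fell from 225 ± 5.44 to 43.7 ± 0.806 CPM (SD, n = 3), with a log2 fold change of -2.36 and an edgeR adjusted p of 6.06e-07. Myl12b, a non-muscle regulatory chain, rose from 62.2 ± 4.19 to 86.3 ± 2.02 CPM (SD, n = 3; log2 fold change 0.47, edgeR adjusted p 0.0014). Myl12a, also a non-muscle regulatory chain and the most abundant of these genes, had 419 ± 82.4 and 477 ± 37.3 CPM, which passed the threshold only without control replicate 2. Myl10 had 0.42 ± 0.0566 and 0.323 ± 0.201 CPM and did not pass it. The atrial chain Myl7 was 0 in the control and had a mean of 0.00445 CPM with miR-322/-503.

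The make-up of the light chain RNA was computed in each library from TPM. Myl1 made up 7.12%, 7.28% and 5.66% of essential light chain RNA in the control libraries, and 26.3%, 24.2% and 24.8% with miR-322/-503. The share of Myl6 was 85.2%, 85.0% and 86.7% in the control and 65.8%, 66.7% and 67.3% with miR-322/-503. These opposite shifts of 18.4 and -19.0 percentage points nearly balanced. The share of Myl4 was 6.82% ± 0.0726 in the control and 6.83% ± 0.671 with miR-322/-503 (SD, n = 3), and the groups overlapped. Myl6b went from 0.847% ± 0.0721 to 1.49% ± 0.0382 (SD, n = 3).

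Within the regulatory light chain RNA, Mylpf made up 58.4%, 51.2% and 51.9% in the control and 66.7%, 63.6% and 65.7% with miR-322/-503. Myl9 had 16.5%, 14.7% and 17.9% in the control and 2.58%, 2.68% and 2.91% with miR-322/-503. The Mylpf gain of 11.5 percentage points thus stood beside a Myl9 difference of -13.7, and with counts per kilobase of exon model these were 17.8 and -19.2. Myl2 stayed below 0.04% of this pool in all libraries. For each share that did not overlap between groups the exact permutation p was 0.1, two-sided, the smallest that 3 libraries against 3 can give, and 0.156 after Benjamini-Hochberg adjustment over 14 shares and ratios. Shares within a pool are not independent of each other, since one can only grow if another shrinks.

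**Figure D3:**
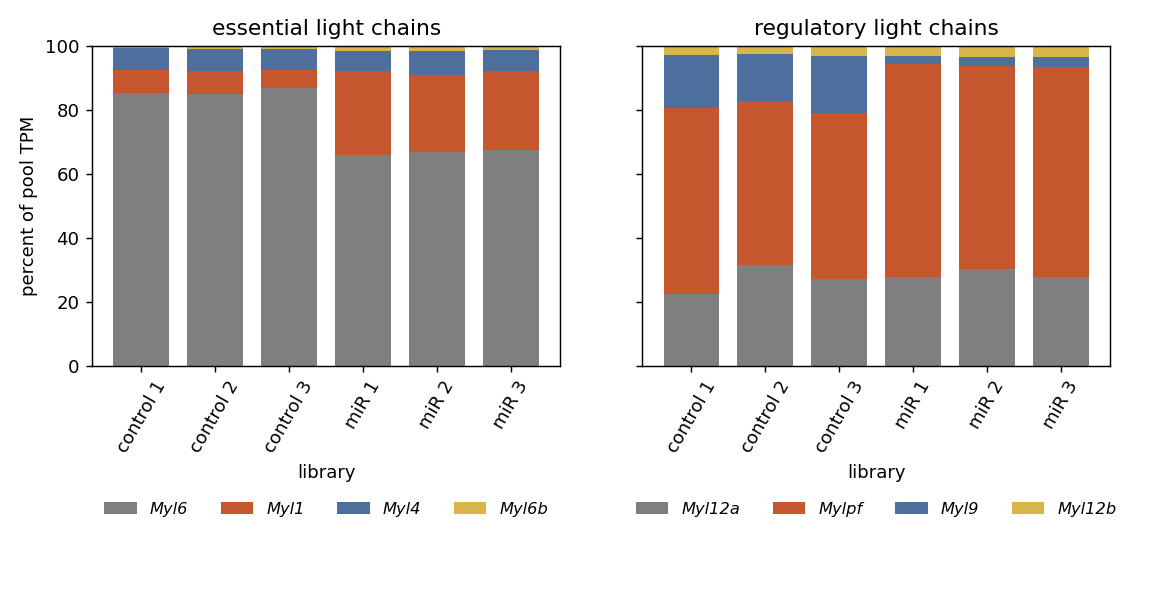
Percent of essential (left) and regulatory (right) light chain TPM held by each gene in each library; genes under 0.1% are too thin to see. The Myl1 part grew from between 5.66% and 7.28% to between 24.2% and 26.3%, and the Myl9 part shrank from between 14.7% and 17.9% to between 2.58% and 2.91%.

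The ratio of striated essential RNA (Myl1, Myl3 and Myl4) to striated regulatory RNA (Mylpf and Myl2) was 0.305, 0.322 and 0.309 in the control and 0.529, 0.529 and 0.531 with miR-322/-503. The 3 miR-322/-503 libraries were nearly the same, and all lay above the control libraries. The difference of 0.218 was 0.106 with counts per kilobase of exon model in place of TPM. Taken over all light chain genes, essential over regulatory RNA was 1.27, 1.18 and 1.28 in the control and 1.08, 1.06 and 1.12 with miR-322/-503, and this difference of -0.158 turned to 0.0124 with those counts. Striated light chain RNA over striated heavy chain RNA (Myh1, Myh2, Myh3, Myh4, Myh6, Myh7, Myh7b and Myh8, without Myh13) was 8.43, 8.10 and 6.91 in the control and 19.2, 13.1 and 14.2 with miR-322/-503. In each of these ratios the control and miR-322/-503 libraries were apart, with an exact permutation p of 0.1 each (two-sided, the smallest possible, adjusted 0.156). The difference of 7.70 in the light to heavy ratio was 4.16 with counts per kilobase of exon model and 0.94 with CPM. Each unit also rescales the ratio itself, so the sizes of these differences cannot be compared between units.

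The heavy chain genes encode the motors that light chains bind, and their changes were set beside those of the members without a test between the lists. Of 9 striated heavy chain genes tested, Myh13 now included, 1 rose and 5 fell, with a median log2 fold change of -0.88, against -0.01 over all tested genes. The rise, that of Myh7b (log2 fold change 0.67, edgeR adjusted p 0.0431), was lost (0 rises) with DESeq2, with limma, with no filter, with the replicate block and whenever any 1 library was left out, and the number of falls lay between 3 (limma) and 6 (DESeq2 and counts per read pair) over the alternatives. Myh2, the fast 2A heavy chain, fell from 19.9 ± 1.71 to 2.71 ± 0.413 CPM (SD, n = 3; log2 fold change -2.88, edgeR adjusted p 1.06e-05), and Myh1, the fast 2X heavy chain, had a log2 fold change of -1.43. Myh13 and Myh4, both fast heavy chains, had log2 fold changes of -1.01 and -0.88. Myh3, the embryonic heavy chain and the most abundant of this list, had 549 ± 13.2 and 530 ± 68.9 CPM and did not pass the threshold (edgeR adjusted p 0.735). Neither Myh3 nor Myl4, the embryonic heavy and light chain genes, passed the threshold. Among 4 smooth and non-muscle heavy chains, the partners of Myl6 and Myl9, 0 rose and 2 fell, namely Myh10 (log2 fold change -0.36) and Myh9 (-0.27).

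Other proteins of the sarcomere were counted in the same way. Of 8 fast sarcomere partners, 4 rose and 1 fell, with a median of 0.48. The rises were those of the fast troponins Tnni2 (log2 fold change 1.12), Tnnt3 (1.04) and Tnnc2 (0.85) and of the fast Z-disc actinin Actn3 (0.79), fitted values between those of Mylpf and Myl1. Skeletal actin, Acta1, had 1300 ± 137 and 1386 ± 63.1 CPM (SD, n = 3) and did not pass the threshold. Of 10 slow and cardiac partners, 3 rose and 0 fell, with a median of 0.24, namely Ankrd2 (0.66), Tnni1 (0.59) and Tnnt1 (0.39), and the rises were 2 without control replicate 1 or miR-322/-503 replicate 1 or 3 and 4 with upper quartile factors, DESeq2, counts per read pair or the replicate block. Tnnc1, the most abundant of them, had a log2 fold change of 0.25 and an edgeR adjusted p of 0.0691. Of 7 tested thick filament partners on a list of 10, 3 rose and 0 fell (Myom2 0.55, Myom1 0.42 and Ttn 0.38), while Mybph did not pass. Of 6 myosin folding factors, 2 rose and 0 fell, Smyd1 by 1.41 and Hsp90aa1 by 0.31 on the log2 scale, and Hsp90ab1 was 0.0039. Without control replicate 3, and with the replicate block, 1 folding factor fell.

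**Figure D4:**
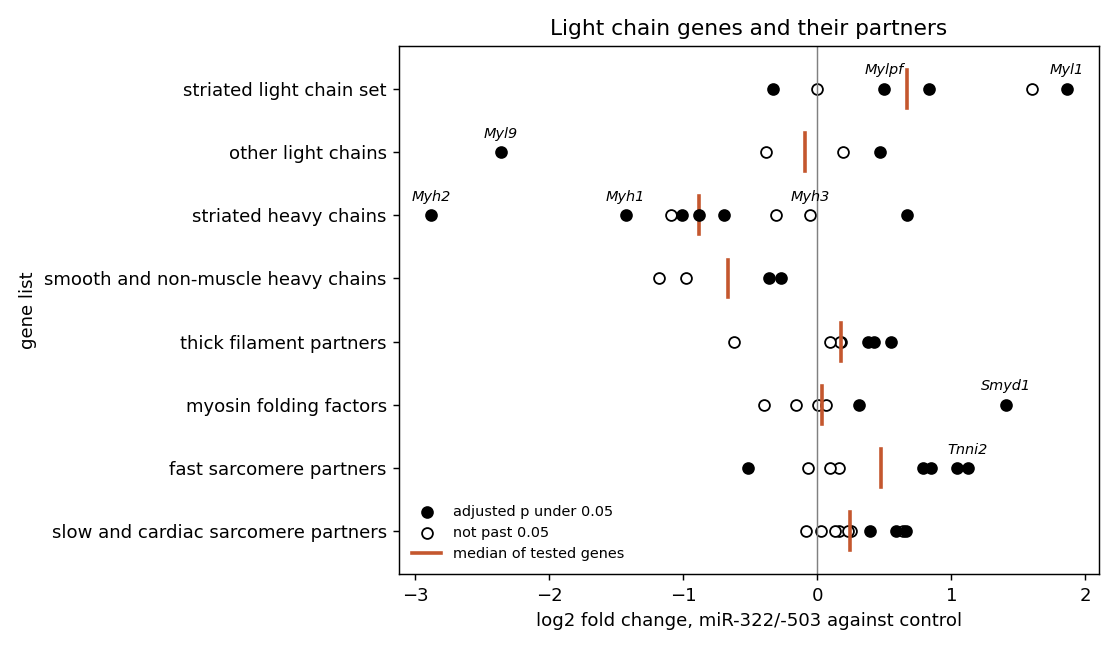
Log2 fold change (miR-322/-503 against control) of each tested gene in the light chain set and in 7 lists of related genes; filled points have an edgeR adjusted p under 0.05 and bars mark list medians. Changes in the light chain set ran from -0.33 (Myl6) to 1.86 (Myl1), and those of the striated heavy chains from -2.88 (Myh2) to 0.67 (Myh7b).

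The enzymes that add or remove the regulatory light chain phosphate gave 4 rises and 4 falls among 15 genes. Mylk, the smooth muscle light chain kinase, rose from 14.3 ± 1.38 to 65.6 ± 3.7 CPM (SD, n = 3; log2 fold change 2.20, edgeR adjusted p 5.59e-06). Mylk4 rose by 0.96 on the log2 scale, and Mylk3, the cardiac kinase, fell by 2.54. The phosphatase inhibitor gene Ppp1r14a had 1.32, 1.22 and 0.746 CPM in the control and 0, 0.227 and 0 CPM with miR-322/-503 (edgeR adjusted p 0.0399), too few for a fold change. The list had 3 falls in place of 4 with no filter, with at least 10 counts in every library, with limma, and without control replicate 1, 2 or 3 or miR-322/-503 replicate 3, and it had 5 with counts per read pair or with the replicate block, which also gave 6 rises. Calm2, 1 of the calmodulin genes and the most abundant of this list, fell by 0.51. No protein or phosphate was measured.

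Of 10 myogenic factor genes, 5 rose and 1 fell, with a median of 0.36. The rises were 4 with limma and without any 1 of the miR-322/-503 libraries. Mef2c rose from 1.9 ± 0.513 to 23.3 ± 3.14 CPM (SD, n = 3; log2 fold change 3.61, edgeR adjusted p 2.23e-05), and Mef2d (0.42) and Mef2a (0.39) also rose. Of the genes for E-box binding factors of the MyoD family, Myod1 (0.37, edgeR adjusted p 0.027) and Myf5 (0.35, edgeR adjusted p 0.00364) rose, Myog fell by 0.74 (edgeR adjusted p 0.000665), and Myf6 did not pass.

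Cell type markers were counted beside the members, and their part in the light chain differences was not tested. Of 8 myotube markers, 5 rose and 1 fell, and their summed level was 3386 to 3751 TPM in the control and 4248 to 4448 TPM with miR-322/-503. The myotube rises were 4 without control replicate 1 or 3 or miR-322/-503 replicate 2 or 3, and DESeq2 gave 2 falls. Of 7 tested smooth muscle markers, 0 rose and 5 fell, from a sum of 6712 to 6986 TPM to one of 2809 to 2944 TPM, in the direction of Myl6 and Myl9. Their defining genes Myh11 and Myocd stayed under 0.1 TPM in the mean of both groups. Of 8 proliferation genes, 0 rose and 6 fell, with Mki67 at -0.75, Ccnb1 at -0.69, Ccna2 at -0.67 and Cdk1 at -0.60, while Pcna did not pass, and the falls were 5 with limma and without any 1 library other than control replicate 2. Of 7 tested fibroblast markers, 2 rose and 4 fell (3 without any 1 library other than control replicate 1), from 4351 to 4639 TPM to 3106 to 3340 TPM. Of 6 tested cardiomyocyte markers, 1 rose and 1 fell, with sums of 12.1 to 14.0 TPM and 11.8 to 13.6 TPM, which overlapped, and the rise, that of Nppb, was lost with DESeq2, with the replicate block and when any 1 library other than miR-322/-503 replicate 1 was left out. Of the tested markers, 0 of 1 changed for adipocytes, 1 of 3 fell for macrophages (0 with at least 10 counts in every library) and 1 of 2 rose for endothelium. Adipoq, Fabp4, Cidec, Lep, Adgre1 and Emcn had no count, and the markers of adipocytes, macrophages and endothelium summed to less than 10 TPM each in all libraries. In bulk RNA, fewer cells of a type and less RNA per cell cannot be told apart.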

How the data were processed

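RNA-seq of 3 control and 3 miR-322/-503 libraries was analysed. According to the methods of the study and the submitters' processing notes, reads were trimmed (Trim Galore), aligned to the GRCm38 genome (HISAT2) and quantified per gene (StringTie) by the authors. Versions are not given in the sources used here. The authors deposited a table of estimated counts per gene, in whole numbers and without normalization, which was used as deposited. The deposited per-library tables give each gene's TPM, FPKM and coverage signal, and TPM values of identifiers listed more than once were summed. FPKM was not used. A count represented about 74.98 bases and genes with few reads most often had 300 bases covered, so 1 read pair was about 4 counts. Of 55421 identifiers, 55154 were found in GENCODE M21.

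Genes kept by filterByExpr were tested with edgeR 4.0.16 (TMM, glmQLFit and glmQLFTest) in R 4.3.3, with Benjamini-Hochberg adjustment over 18140 genes. The standard error is the log2 fold change divided by the square root of F, and its 95% interval uses 4 degrees of freedom and is not adjusted. DESeq2 1.42.0 (the tool of the study) and limma 3.58.1 were alternatives. Shares and ratios were compared with exact permutation tests (scipy 1.17.1). The edgeR step was tested on simulated data. Every replicate pair differed by more than sampling noise (chi-square per degree of freedom 14.6 to 21.2). Transcripts were compared by BLAST, with at least 90% identity over at least 100 bases counted as similar. Promoters and microRNAs came from RefSeq tables of GRCm38.p6. The seed search of 1 member is not reported here.

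The members, the gene lists and the tests were chosen with earlier results of these data known. Genes named from a list are up to 4 with the largest change among those with an adjusted p under 0.05 and at least 1 CPM in the higher group, and the one with the highest TPM. Myl7, Myl10, Myh7b, Myod1, Myf5, Myf6 and the marker genes were named after their values were seen. Genes most like a member are the 3 with at least 10 CPM and the smallest Euclidean distance between centred log2 CPM values.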

Additional observations from a re-analysis of the deposited data

How the results depend on the processing

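The log2 fold changes of Myl1 (1.745 to 1.929), Myl6b (0.723 to 0.937) and Mylpf (0.400 to 0.565) kept their direction and stayed past the threshold under all 16 alternatives run. The fall of Myl6 ranged from -0.382 to -0.299 and did not pass with limma on log2(TPM + 1), at -0.352 (adjusted p 0.0519), so 0 members fell in that fit. Myl2 ranged from 0.574 to 2.08, passed with limma on log2(TPM + 1) (0.574) and on log2(TPM + 0.1) (1.509), which made 2 members called higher in the latter, and had no value under a minimum of 10 counts in every library or with counts per read pair. The log2 fold change of Myl4 turned positive under RLE size factors (0.0069), upper quartile factors (0.0132), DESeq2 (0.0038), counts per read pair (0.0041) and limma with either pseudocount (0.0064), and lay between -0.0782 and 0.0335 when single libraries were left out. With limma on log2(TPM + 1), 391 genes were called higher and 564 lower, against 832 and 959 with edgeR. The causes of these differences were not tested.

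The Myl1 share difference was 23.2 percentage points with counts per kilobase of exon model, and that of Mylpf 17.8. The Myl4 share difference of 0.00191 was -0.175 with CPM, -0.642 with counts per kilobase, and lay between -0.385 and 0.215 when single libraries were left out. The Myl12a difference of 1.55 lay between -0.789 (without control replicate 1) and 3.88. The striated essential to regulatory difference of 0.218 was 0.176 with CPM and 0.106 with counts per kilobase. The light to heavy difference was 0.94 with CPM and 4.16 with counts per kilobase. These units rescale the ratios themselves, so the sizes of such differences cannot be compared between units. The difference of all essential to all regulatory RNA was -0.0656 with CPM and reversed to 0.0124 with counts per kilobase.

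Libraries with the same number deviated together by correlations of 0.131, 0.0687 and 0.0451, so the numbers were not taken as pairs. With the replicate block, Myl1 was 1.862, Myl6 -0.330, Myl6b 0.839, Mylpf 0.507 and Myl2 1.659 on the log2 scale and no member's call changed. In shares and ratios the block gave the same differences, and sign flips of 3 pairs cannot go below p = 0.25 (exact). Adding the pseudogene counts was chosen after seeing the data. Estimated counts overstate the counting precision by about 4 counts to a read pair, and below 12 counts, as for Myl2 in 2 control libraries, a level is not told from 0.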

Other observations

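For each tested member, the genes whose pattern over the 6 libraries was most like it were found among 9658 genes, by the Euclidean distance between log2 CPM values centred on each gene's mean. The contrast between the groups dominates such a distance, so it mostly finds genes with a change of the same size. Nearest to Myl1 were Hspb1, a small heat shock protein of muscle (distance 0.268, log2 fold change 2.04), Gatm, the first enzyme of creatine synthesis (0.3 and 1.93), and Chn2 (0.338 and 1.7). Nearest to Myl6b was Tnnc2, the fast troponin C (0.11 and 0.85), then Nlrc3 (0.147) and Macrod1 (0.156). Nearest to Mylpf were Kcnh2 (0.108), Kctd15 (0.113) and Orai1, the pore of store-operated calcium entry (0.115). Myl6 had the closest neighbours, Usp19 (0.0249), Mkks (0.0471) and Dapk2 (0.0497), whose log2 fold changes were -0.33, -0.35 and -0.34. Myl4 lay nearest to Gm20632 (0.052), Mcm2 (0.0708) and Adam9 (0.0752), none of which passed the test. No gene came closer to Myl2 than Npnt, at 0.922. Myl6 and Myl9, both light chains of smooth muscle myosin, differed in size of change, with -0.33 and -2.36 on the log2 scale.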
